A study of Mus musculus with 2 samples.

Results

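The translation initiation and elongation factor genes were taken as every row of the feature list whose symbol begins with Eif1 to Eif6 or with Eef, leaving out the eIF2 alpha kinases Eif2ak1 to Eif2ak4 and the Y-linked Eif2s3y, which gave 66 of 32285 genes. Of these, 65 are annotated as protein-coding and 1, Eif2c5, as a lincRNA, and the symbols also take in 7 genes of enzymes that modify elongation factors, such as the kinase Eef2k and the methyltransferases Eef1akmt1 and Eef2kmt. Their unique molecular identifier (UMI) counts were compared in single cells of femoral bone marrow from a control and a DKO mouse, each 2 months old and each giving 1 library. The control (genotype label WT) was a littermate with Ddx41fl/fl but no VavCre, its cGas wild-type, and the DKO was VavCre:Ddx41fl/fl cGas-/-. Both mice thus carried the floxed Ddx41 alleles, and Vav drives Cre in all hematopoietic cells and, by the study's own account, in oocytes and endothelial cells too. The question behind the pair is how marrow cells, red cell precursors above all, differ once Ddx41, an RNA helicase gene, and cGas, the gene of a cytosolic DNA sensor, are both lost.

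After filtering, 18761 control cells held 119584085 UMIs and 13729 DKO cells held 114830668 UMIs. Cells were clustered without the member genes and named from marker genes, so that class names end in "-like", and 12 classes had at least 50 cells in both libraries. Some clusters stayed unnamed and entered no class or stage, the largest with 588 control and 603 DKO cells. Another, with 162 and 75 cells, had the late erythroid marker Xpo7 among its leading genes. Each level below is a CPM, the UMIs of a gene per 1000000 UMIs of the class, or a CPM without hemoglobin, whose total leaves hemoglobin UMIs out, and a ratio is the log2 of DKO over control. With 1 library per genotype there was no replicate and no test between genotypes. Intervals hold 95% and reflect counting error alone, and a member counted as "lower" or "higher" lay past 1.5-fold and reached 20 CPM in at least one library. The libraries shared 81 cell barcodes. As a check of the labels, Ddx41 had 2420 UMIs over all control cells and 919 over all DKO cells, a ratio of -1.34 (interval -1.45 to -1.23), and Cgas had 1619 and 832 (-0.90), so that UMIs of both genes remained in the DKO library.

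Translation initiation begins when eIF2, loaded with the initiator tRNA, joins eIF1, eIF1A, eIF3 and eIF5 on the small ribosomal subunit, while the cap-binding eIF4E, the scaffold eIF4G and the helicase eIF4A bring in the mRNA. eIF1 guards the choice of the start codon, and eIF5 triggers the GTP hydrolysis of eIF2 and takes the place of eIF1 once the codon is found. In elongation, eEF1A delivers aminoacyl-tRNAs, the eEF1B subunits recharge it with GTP, and eEF2 moves the ribosome along. Red cell precursors translate globin at a high rate while most of their other transcripts are lost, and many mRNAs of the translation machinery share a pyrimidine-rich start, the 5' terminal oligopyrimidine (TOP) motif.

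The annotated starts of 6 members the results turn on are shown as 30 bases each (RefSeq, GRCm38.p6, 10 bases before the start and 20 from it on, in the sense of the gene), to let a reader see which begin with such a run. The motif searched was a C followed by at least 5 bases that are each C or T, with its C within 5 bases of the annotated start, on the transcribed strand only, and it stands in capitals where it was found.
Eef1a1 (chr9:78481705-78481734, minus strand): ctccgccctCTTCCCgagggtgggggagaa
Eif3f (chr7:108934405-108934434, plus strand): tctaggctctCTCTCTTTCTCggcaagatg
Eif2s3x (chrX:94212632-94212661, minus strand): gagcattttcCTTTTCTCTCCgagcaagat
Eef1b2 (chr1:63176821-63176850, plus strand): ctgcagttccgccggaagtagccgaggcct
Eif1 (chr11:100319939-100319968, plus strand): ggcgtcacaggggcggctatataagtgaat
Eif5 (chr12:111538091-111538120, plus strand): cgacgtgcatgcgagccaatgacaagagaa
Of the 50 members with an entry, 8 held the motif (16%), against 11.9% of 27025 genes and 29 of 67 cytosolic ribosomal protein genes (43.3%). Besides Eef1a1, Eif3f and Eif2s3x these were Eif2b2, Eif2b5, Eif2c5, Eif3l and Eif4g1. The start of Eef1a1 printed here is that of the RefSeq transcript, which lies inside the longer GENCODE gene (chr9:78478449-78489151), so that a start farther upstream was not searched. A window without the motif says only that those letters are not at the annotated start.

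A few members held most of the family's UMIs. Over all cells of both libraries Eef1a1 took 23.6% of the member UMIs, Eif1 11.1%, Eef1b2 6.60%, Eif5 4.40% and Eif5a 4.16%, and the 10 most abundant members, with Eef2, Eif4a1, Eif3f, Eef1g and Eif4g2, took 65.0%. UMIs are counted from transcript ends, and no correction for length was made to these levels. Eef1a2, the eEF1A gene known from muscle and neurons, had 0 of 279475 eEF1A UMIs in control cells and 0 of 189117 in DKO cells, which allows a share of up to 0.00132% and 0.00195% (Clopper-Pearson). Part of the sequence of some members is shared with other genes, so that their counts are uncertain: 35.0% of the 50-base words in the last 500 bases of the Eef1a1 transcript occur in other annotated genes, 43.0% for Eif3m, 88.9% for Eif3j2 and 100% for Eif4ebp3.

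The summed level of the 66 genes differed widely between cell classes, in the same order at both ends in both libraries. It was highest in basophil or mast cell-like cells, at 18710 CPM for control and 17096 CPM for DKO, with monocyte-like cells next at 16348 and 15334 CPM. Neutrophil-like cells had 5003 and 4636 CPM. Late erythroid-like cells were lowest, with 2280 CPM (interval 2263 to 2298) for control and 1294 CPM (1282 to 1306) for DKO. The low level of late erythroid-like cells rests on the scale, since hemoglobin genes took 85.1% of their UMIs in control and 88.3% in DKO cells. On the scale without hemoglobin the same cells had 15300 and 11055 CPM, rank 6 and rank 8 of the 12 classes, and neutrophil-like cells were lowest with 5204 and 4825 CPM.

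Within the family, late erythroid-like cells stood apart by Eif5 and Eif1. Of 56 members that reached 20 CPM in some control class, 53 were lowest in late erythroid-like cells on the total scale, and in the DKO library it was 55 of 57. Over all genes of that level, 74.3% in control and 71.8% in DKO were lowest in this class. Without hemoglobin it was 31 members in control, with 19 lowest in neutrophil-like cells, and 43 in DKO, against 40.6% and 48.2% of all genes. Eif5 was the single member highest there in either library on the total scale, at 844 CPM for control and 664 CPM for DKO, whereas its level in B cell-like cells was 232 and 182 CPM and in early erythroid-like cells 251 and 246 CPM. Without hemoglobin UMIs, Eif1 joined it as a member whose highest class was late erythroid-like in both libraries.

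To follow the members through erythroid maturation, the cells of both erythroid classes were divided by the share of hemoglobin in their UMIs into 5 stages, under 15%, 15 to 40%, 40 to 75%, 75 to 90%, and 90% or more. The stages held 923, 534, 1217, 3691 and 1414 control cells and 675, 478, 1204, 1420 and 2626 DKO cells. The last boundary runs through a dense range, with 2197 of 7779 control and 1588 of 6403 DKO cells within 2 points of 90%. As hemoglobin defined the stages, falls on the total scale are partly built in, and levels are given in CPM without hemoglobin unless stated otherwise.

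Eif5 rose and Eif1 rose along the stages in both libraries, while nearly every other member fell. Eif5 went from 255 through 370, 1533 and 6724 to 3793 in the control library, and from 265 through 334, 1029 and 6819 to 5167 in the DKO library. It thus peaked at 75 to 90% hemoglobin in both. Eif1 went from 1758 through 3140, 3885 and 5521 to 6928 in the control library, rising at each stage. In the DKO library Eif1 went from 1466 through 2535 and 3144 down to 2090 and up to 3501. From the first stage to the last, the log2 change of Eif5 was 3.90 (interval 3.80 to 3.99) for control and 4.28 (4.21 to 4.36) for DKO cells, and that of Eif1 was 1.98 (1.93 to 2.03) and 1.26 (1.21 to 1.30).

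Counted per cell, which leaves out any scaling but not the difference in depth, Eif5 went from 1.66 UMIs per control cell in the first stage to 5.18 at 75 to 90% hemoglobin and 1.66 in the last. In DKO cells it went from 2.78 to 8.66 and 3.10. Eif1 had its highest count at 15 to 40% hemoglobin, with 18.9 UMIs per control cell and 20.8 per DKO cell, and fell to 3.03 and 2.10 in the last stage. The median DKO cell of the 75 to 90% stage held 8269 UMIs and the median control cell 5510, so that a DKO cell had more UMIs of Eif5 but fewer of Eif1 in spite of its greater depth.

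**Figure D1:**
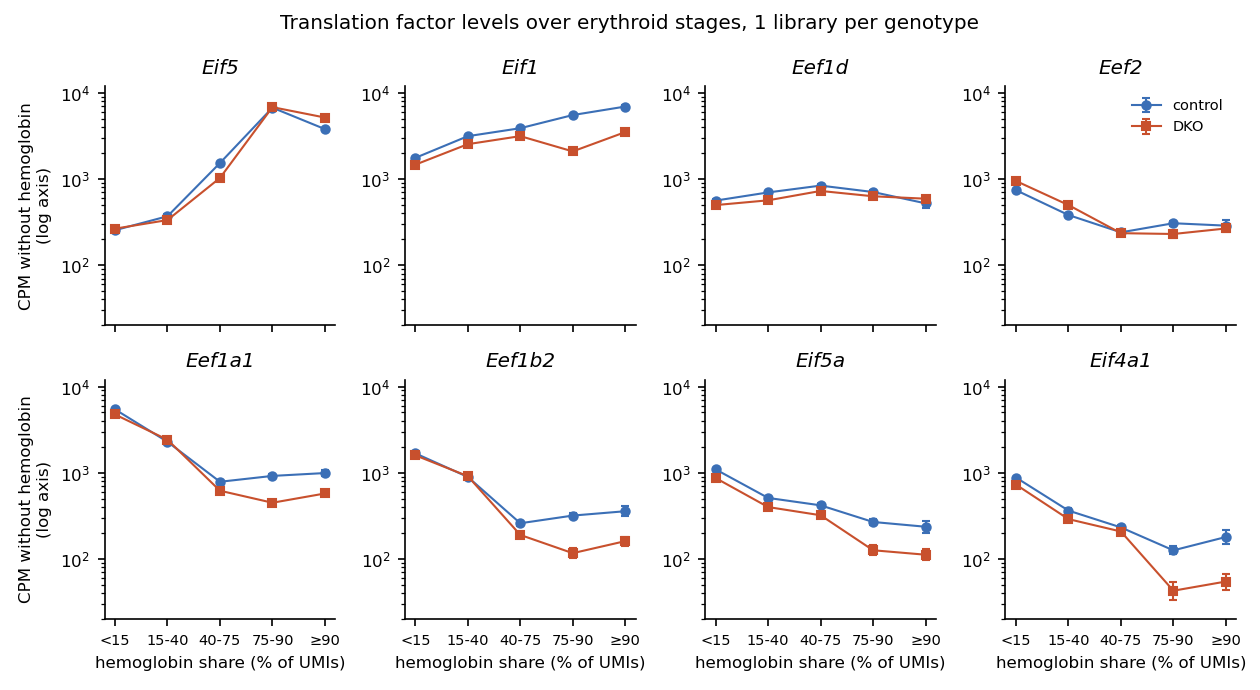
Level of 8 members over the erythroid stages. The x axis gives the hemoglobin share of a cell's UMIs in percent, the y axis the level in CPM without hemoglobin on a log axis, with blue circles for the control library, orange squares for the DKO library and bars for the 95% Poisson interval. Eif5 climbs to 6724 and 6819 at 75 to 90%, and Eef1a1 falls from 5426 and 4736 to 990 and 574. Eif1 is lower in the DKO library at every stage, with the widest gap at 75 to 90%.

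Elongation factors fell early. Eef1a1, the eEF1A gene, went from 5426 through 2282, 784 and 917 to 990 in the control library, and from 4736 through 2412, 618 and 448 to 574 in the DKO library, so that most of its fall lay before 75% hemoglobin. Eef1b2, an eEF1B exchange factor subunit, followed the same course, from 1677 to 357 and from 1591 to 161. Eef2, the translocase, went from 742 to 288 and from 949 to 267. Eef1d, the other exchange factor subunit, hardly moved: its log2 change was -0.10 (interval -0.28 to 0.06) for control and 0.25 (0.14 to 0.35) for DKO cells. Eef1g, the structural subunit of the same complex, fell by 3.15 and 4.96 on the log2 scale.

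Among initiation factors other than Eif1 and Eif5, the subunits of eIF3 went down together, though not equally. Eif3g fell by 4.34 and 4.46 and Eif3f by 2.89 and 3.87 on the log2 scale, whereas Eif3k fell by 1.12 and 0.87. The helicase gene Eif4a1 fell by 2.28 and 3.72, the scaffold gene Eif4g1 by 2.88 and 4.71, and Eif4g2, whose product lacks the eIF4E site, by 0.97 and 1.54. Eif5a, whose product carries the modified residue hypusine and helps the ribosome through difficult peptide bonds, fell by 2.20 and 2.95. Of 54 members of at least 20 CPM in the first stage, 51 were lower in the last stage in each library, with medians of -2.43 for control and -3.32 for DKO. All genes moved much the same way, since 86.3% of 5977 genes were lower in control and 89.4% in DKO cells, with medians of -1.90 and -3.01. Higher in the last stage were 2 members in each library, Eif1 and Eif5, against 5.29% of all genes for control and 5.62% for DKO.

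The make-up of the family's UMIs therefore shifted. Eif1 and Eif5 together held 9.35% (Clopper-Pearson interval 9.20% to 9.51%) of the member UMIs of the first control stage and 8.28% (8.14% to 8.43%) of the first DKO stage. At 75 to 90% hemoglobin they held 72.5% and 74.8%, and in the last stage 71.0% and 74.9%. The eEF1 genes Eef1a1, Eef1b2, Eef1d and Eef1g went the other way, from 40.1% and 37.8% in the first stage to 13.1% and 11.7% in the last. These shares need no scaling between the libraries.

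**Figure D2:**
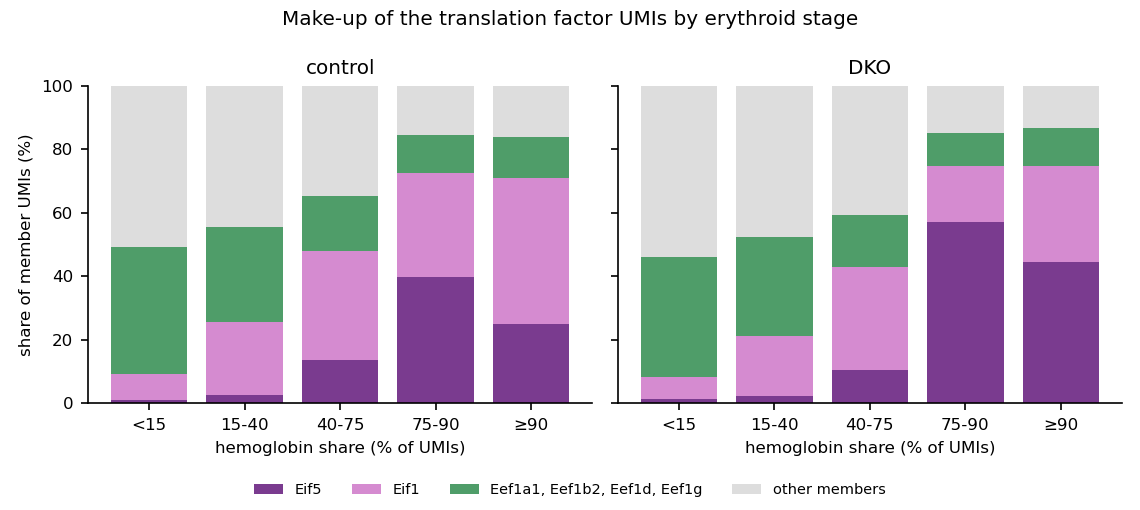
Share of the family's UMIs held by Eif5, by Eif1, by the 4 eEF1 genes and by the other members, in percent of all member UMIs, for each erythroid stage by hemoglobin share (x axis) in the control library (left) and the DKO library (right). Eif1 and Eif5 take 9.35% of the bar in the first control stage and 71.0% in the last, with Eif5 the taller part of the pair in the late DKO stages.

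Among the paralogs, Eif1 and Eif4a1 remained the major copies, while the leading copy of the Eif4e and Eif4ebp genes differed between late groups. Eif1 held 91.9% of the UMIs of Eif1 and Eif1b in the first control stage and 99.3% in late erythroid-like control cells, with 92.2% and 99.4% in the DKO library. Eif4a1 held 92.9% of the eIF4A UMIs with Eif4a2 in the first control stage and 88.7% in the first DKO stage, and 83.1% and 77.1% in late erythroid-like cells. Of the cap-binding genes with Eif4e3, Eif4e held 879 of 1516 UMIs in the first control stage and 62.6% in the first DKO stage. In late erythroid-like cells Eif4e2 held the larger share, 53.5% of 241 UMIs in control and 49.6% of 115 in DKO, against 38.6% and 44.3% for Eif4e. The intervals of these shares overlapped in DKO. At 75 to 90% hemoglobin Eif4e2 led in control, with 67 of 132 UMIs against 57, and Eif4e in DKO, with 23 of 47 against 22. At 90% or more Eif4e led in both, with 13 of 26 UMIs against 9 in control and 18 of 42 against 17 in DKO. The intervals overlapped in both stages. Eif4ebp1, which codes for an inhibitor of eIF4E, held 60.8% of the UMIs of its family in the first control stage and 47.9% in the first DKO stage, where Eif4ebp2 held 35.5% and 46.9%. It held 46.6% of the UMIs of the Eif4ebp genes in late erythroid-like control cells, where Eif4ebp2 held 51.9%. In DKO cells of that class Eif4ebp1 held 14.4% and Eif4ebp2 82.8%, on 51 and 294 UMIs. In the last control stage, in contrast to the class, Eif4ebp1 led, though on few UMIs, with 32 against 21 for Eif4ebp2. In the last DKO stage Eif4ebp2 led, at 1.74 CPM against 1.22 CPM for Eif4ebp1.

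The comparison of the genotypes in late erythroid-like cells rested on 5441 control cells with 29760586 UMIs and 4228 DKO cells with 35216313 UMIs. Only 10 of the 66 members reached 20 CPM there, and all 10 had a ratio and an interval below 0. Of these 6 were lower and 0 higher, while over all 727 genes tested 36.5% were lower and 0.413% higher. The median ratio of the 10 members was -0.96, against -0.37 for all genes and -1.18 for 81 cytosolic ribosomal protein genes.

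Start codon selection factor Eif1 was at 741 CPM in control and 285 CPM in DKO cells, a ratio of -1.38 (interval -1.41 to -1.34). The gene of its partner, Eif5, at 844 and 664 CPM, differed far less, with a ratio of -0.35 (-0.37 to -0.32). Set against each other within a library, there were 0.878 UMIs of Eif1 per UMI of Eif5 in control cells and 0.430 in DKO cells, a ratio of -1.03 (-1.07 to -0.99) that no scaling touches.

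The elongation genes divided in the same manner. Eef1b2 was at 46.3 and 15.2 CPM, with a ratio of -1.60 (-1.75 to -1.46), the lowest of the 10. Eef1a1 was at 138 and 56.7 CPM, with a ratio of -1.28 (-1.36 to -1.20). Eef2 was at 42.9 and 27.6 CPM (-0.64, interval -0.76 to -0.51) and Eef1d at 99.2 and 69.1 CPM (-0.52, interval -0.60 to -0.44), so that the exchange factor subunits Eef1b2 and Eef1d did not keep step. Eif5a, at 40.4 and 14.0 CPM (-1.52, interval -1.68 to -1.37), and Eif2s2, the beta subunit of eIF2, at 33.0 and 13.2 CPM (-1.32, interval -1.48 to -1.16), were the other lower members. Eif3k, at 36.0 and 24.5 CPM, and Eif4g2, at 27.5 and 20.3 CPM, had ratios of -0.55 and -0.43, within 1.5-fold.

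Much of the shift of all genes follows from hemoglobin, which took a larger share in the DKO library. With hemoglobin UMIs left out of the total, the median ratio was -0.61 for the 10 members and -0.02 for all genes. Eef1b2, Eif5a, Eif1, Eif2s2 and Eef1a1, 5 members, remained lower, where 23.1% of all genes were lower and 9.08% higher, and 0 members were higher. On that scale the ratio of Eif1 was -1.03 (-1.06 to -0.99), that of Eef1a1 -0.93 (-1.01 to -0.85), and that of Eif5 0.00 (-0.02 to 0.03), with 5661 and 5672 CPM. The members under 20 CPM mostly had a ratio below 0 as well, as did most genes. Of 63 members with any UMI in late erythroid-like cells, 62 had a ratio below 0 on the total scale and 59 without hemoglobin, while 85.5% and 75.2% of all genes with a UMI there did. The interval lay below 0 for 53 and 42 members, against 40.8% and 27.6% of all genes, and above 0 for 0 members on either scale, against 1.38% and 3.79%.

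**Figure D3:**
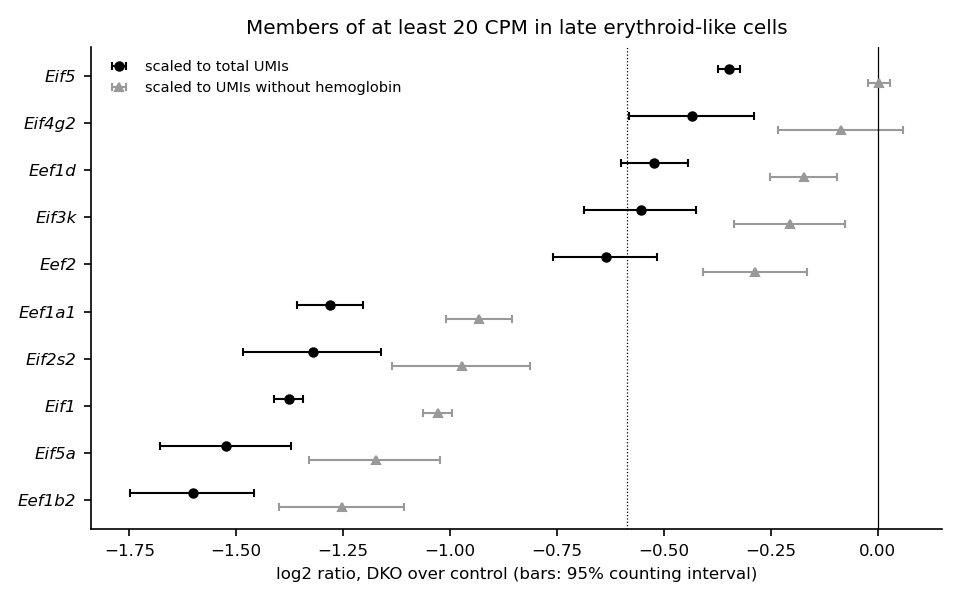
Log2 ratio of DKO over control (x axis) for the 10 members of at least 20 CPM in late erythroid-like cells, scaled to total UMIs (black circles) and to UMIs without hemoglobin (gray triangles), with bars for the 95% counting interval and a dotted line at a 1.5-fold decrease. Eef1b2, Eif5a, Eif1, Eif2s2 and Eef1a1 lie left of the line on both scales, and Eif5 moves from -0.35 to 0.00.

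The class was made up of 7 clusters, 1 of which, with 12 control cells and 1 DKO cell, was too small to compare. In the other 6, taken singly, Eif1 and Eef1a1 had lower ratios than Eif5, with ratios of -1.56 to -1.16 for Eif1, -1.46 to -1.12 for Eef1a1 and -0.83 to 0.00 for Eif5 on the total scale. The clusters were filled unequally. The cluster led by Isg15, an interferon-stimulated gene, held 40.8% of this class in the control library and 20.4% of it in DKO, and a cluster led by Tent5c held 11.9% and 24.0%. In the Isg15-led cluster the ratios were -1.38 for Eif1, -1.23 for Eef1a1 and -0.31 for Eif5.

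In cells grouped by hemoglobin share, Eif1, Eef1a1 and Eef1b2 were lower in both late stages, whereas Eef2 lay within 1.5-fold and the ratio of Eif5 was above 0. The stages are ranges and do not match cells one to one. Hemoglobin took 85.9% of UMIs in control and 84.9% in DKO at 75 to 90%, and 91.6% and 92.6% in the last stage. At 75 to 90% hemoglobin, Eif1 was at 776 CPM in control and 316 CPM in DKO cells, a ratio of -1.30 (-1.35 to -1.24), and Eif5 at 945 and 1031 CPM, a ratio of 0.13 (0.09 to 0.16) that was 0.02 (-0.01 to 0.05) without hemoglobin. The ratio of Eef1a1 was -0.93 (-1.04 to -0.81) and that of Eef1b2 -1.34 (-1.57 to -1.13), while Eef1d stood at -0.06 (-0.16 to 0.05). Of 10 members tested 5 were lower and 0 higher, with a median of -0.48, in a stage where 17.0% of all genes were lower and 41.4% higher and the median of all genes was 0.36. In the last stage 3 of 7 members were lower and 0 higher, against 33.2% and 13.1% of all genes. Eif1 was there at 581 and 259 CPM (ratio -1.17, interval -1.22 to -1.11), Eef1a1 at 83.0 and 42.4 CPM (-0.97, interval -1.12 to -0.82) and Eif5 at 318 and 382 CPM (0.27, interval 0.20 to 0.33).

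Before these stages few members differed past 1.5-fold between the libraries. Over the 3 stages under 75% hemoglobin, 0 of 133 pairs of member and stage were lower and 1 was higher, against 3.86% and 5.57% of all pairs of gene and stage. The higher one was Eif4enif1, which codes for an eIF4E transporter, at 20.7 and 40.8 CPM at 40 to 75% hemoglobin (ratio 0.97, interval 0.73 to 1.24), named after its value was seen. In that stage Eif5 was at 631 and 432 CPM, a ratio of -0.55 (-0.60 to -0.49), and Eif1 at 1600 and 1320 CPM (-0.28, interval -0.31 to -0.24). The UMIs of Eif1 per UMI of Eif5 were there 2.54 in control and 3.06 in DKO cells, a ratio of 0.27 (0.21 to 0.33). In every other stage that ratio was below 0. It was -0.32 (-0.43 to -0.22) under 15% hemoglobin, -0.16 (-0.28 to -0.04) at 15 to 40%, and -1.42 and -1.43 in both later stages. Eef2 was within 1.5-fold in the first stage, at 711 and 913 CPM, a ratio of 0.36 (0.31 to 0.42), and at 15 to 40% hemoglobin (0.38, interval 0.27 to 0.48). At 75 to 90% its ratio was -0.31 (-0.48 to -0.14). Eif2s2 went from 0.33 (0.25 to 0.40) in the first stage to -0.66 (-0.88 to -0.44) at 75 to 90%.

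Transcripts of other cells were present in late erythroid-like cells and were more abundant in the control library. All 9 neutrophil markers were detected in both libraries, with a summed level of 1145 CPM in control and 429 CPM in DKO cells, and the 7 monocyte markers summed to 32.7 and 11.8 CPM. In barcodes of the control library with at most 100 UMIs, taken as free RNA, the 8 T or NK cell markers were so frequent that free RNA could make up at most 2.77% of the UMIs of late erythroid-like control cells, the lowest such limit of all marker lists. At that limit it could account for at most 0.904% of the Eif5 UMIs and 2.81% of the Eif1 UMIs of these cells, but for 44.7% of those of Eef1a1, 30.7% of Eef1b2, 29.9% of Eif4g2, 26.2% of Eef2 and 24.0% of Eif5a. In the last stage the limit for Eef1a1 was 61.3%. The part of free RNA in the ratios of the elongation genes was not tested in the DKO library, which holds called cells only.

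Of 28 further genes of the translation pathway, 6 reached 20 CPM in late erythroid-like cells. On the total scale 1 was lower and 0 higher, against 36.5% and 0.413% of all genes. Without hemoglobin 1 was lower and 1 higher, against 23.1% and 9.08%. At 75 to 90% hemoglobin 1 of 6 was lower and 3 were higher, against 17.0% and 41.4% of all genes. In the last stage 1 of 4 was lower and 2 were higher, against 33.2% and 13.1%. The lower gene was Tpt1, which codes for the translationally controlled tumor protein, at 1393 and 649 CPM (ratio -1.10). Pabpc1, the cytoplasmic poly(A)-binding protein gene, was at 1218 and 1773 CPM, a ratio of 0.54 (0.52 to 0.56) that was 0.89 (0.87 to 0.91) without hemoglobin, and in the last stage at 607 and 1276 CPM (1.07, interval 1.03 to 1.12). Eif2ak1, the heme-regulated eIF2 alpha kinase of red cell precursors, was at 79.0 and 82.9 CPM (ratio 0.07, interval -0.01 to 0.15) in the class as a whole. At 75 to 90% hemoglobin it was at 53.7 and 126 CPM (1.23, interval 1.12 to 1.35). Ppp1r15a codes for a subunit of the phosphatase that acts on eIF2 alpha. It was at 165 and 295 CPM at 75 to 90% hemoglobin (0.84, interval 0.77 to 0.90). Its ratio in the last stage was 1.03 (0.73 to 1.37). In the class as a whole Ppp1r15a was at 190 and 169 CPM (-0.17), a ratio that was 0.17 (0.12 to 0.23) without hemoglobin. As for the motif, Eef1a1 was the single member with it among those tested in this class, so that members with and without it could not be compared there. Over the stages, the log2 change without hemoglobin in the control library had a median of -2.55 for 7 members with the motif and -2.28 for 36 without.

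In the other 11 classes fewer members lay past 1.5-fold. Of 553 pairs of member and class, 21 were lower and 10 higher, where 4.65% of all pairs of gene and class were lower and 12.1% higher. Eif5a made up 5 of the lower pairs. It was at 1428 and 858 CPM in cKit+ progenitor-like cells (ratio -0.73, interval -0.80 to -0.67), at 867 and 553 CPM in monocyte-like cells (-0.65, interval -0.69 to -0.60) and at 297 and 192 CPM in neutrophil-like cells (-0.63, interval -0.69 to -0.57). Its ratio was -0.83 in T or NK cell-like and -0.74 in megakaryocyte-like cells. In stromal or endothelial-like cells, the class outside blood, it was 0.12 with an interval of -0.38 to 0.60, and -0.09 without hemoglobin.

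Eef2 had ratios above 0, within 1.5-fold. It was at 553 and 675 CPM in B cell-like cells (ratio 0.29, interval 0.23 to 0.34), at 591 and 696 CPM in monocyte-like cells (0.24, interval 0.19 to 0.28) and at 408 and 520 CPM in cKit+ progenitor-like cells (0.35, interval 0.26 to 0.44). Its ratio was above 0 in all 11 classes on the total scale, with 8 intervals above 0, and below 0 in megakaryocyte-like cells without hemoglobin (-0.09). Eif3a, the largest eIF3 subunit, was above 0 in all 11 on both scales and in 10 with ribosomal proteins left out too. Over the 41 members of at least 20 CPM in all 11 classes, 6 had a ratio above 0 in every class, namely Eef2, Eif3a, Eif4b, Eif4g1, Eif4g2 and Eif4g3, and 13 had one below 0 in at least 10 classes. The rule for below is the looser, so these counts cannot be set against each other. Below 0 in all 11 were Eef1d, Eif3d, Eif3k and Eif5 alone, and Eif4a2, Eif4ebp2 and Eif4enif1 were above 0 in 10. Of 2685 genes, 15.2% were above 0 in every class and 17.4% below 0 in at least 10. Without hemoglobin 3 members were above 0 in every class and 17 below 0 in at least 10, against 9.85% and 21.7% of all genes. With ribosomal proteins left out too these counts were 1 and 18, against 8.04% and 22.4%. The share of members above 0 in every class, 14.6%, was near that of all genes. The share below 0 in at least 10 classes, 31.7%, was larger than that of all genes under the same rule.

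**Figure D4:**
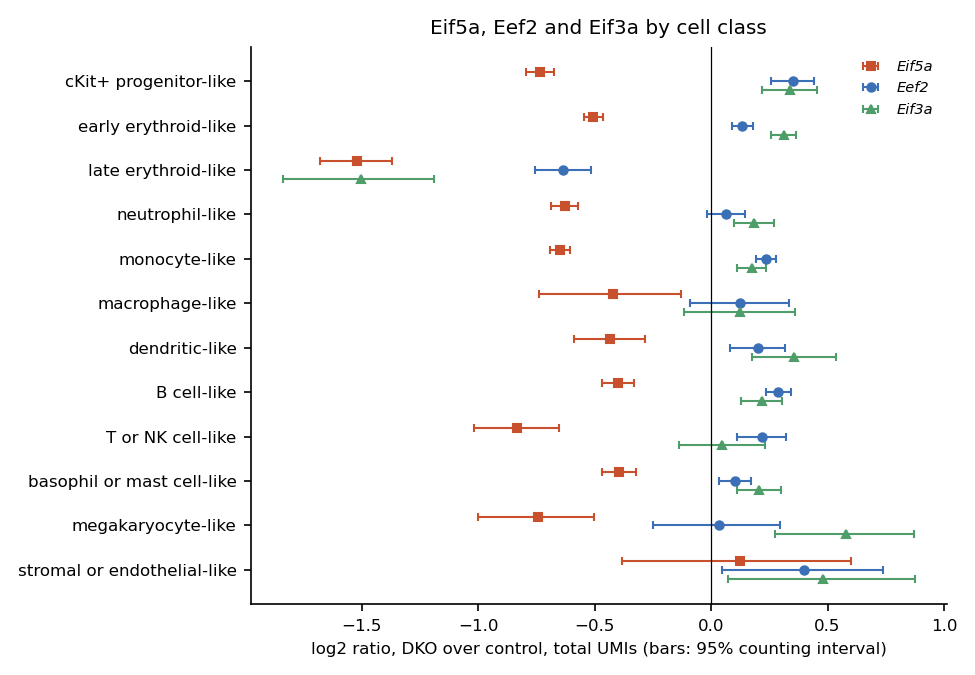
Log2 ratio of DKO over control (x axis, total UMIs) for Eif5a (orange squares), Eef2 (blue circles) and Eif3a (green triangles) in the 12 cell classes, with bars for the 95% counting interval. Eif5a lies left of 0 in every class but the stromal or endothelial-like, and Eef2 and Eif3a lie right of it in every class but the late erythroid-like on this scale.

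Among the members, these directions went with transcript length, as they did among all genes. The longest protein-coding transcript (GENCODE M21) of the 6 members above 0 in every class measured 3089 to 8134 bases, with a median of 5382, and that of the 13 members below 0 in at least 10 classes 909 to 4050 bases, with a median of 1774. Across the 41 members, which share the same libraries, Spearman's rho between this length and the median ratio over the 11 classes was 0.67, and across 2658 genes with a length it was 0.71. The relation was present in late erythroid-like cells too, with a rho of 0.60 over the 10 members tested and 0.63 over 708 genes. Eif1 measured 1322 bases and had a median ratio of -0.15 over the 11 classes, and Eif5 measured 4050 bases and had one of -0.37. The part of length in these ratios was not tested.

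**Figure D5:**
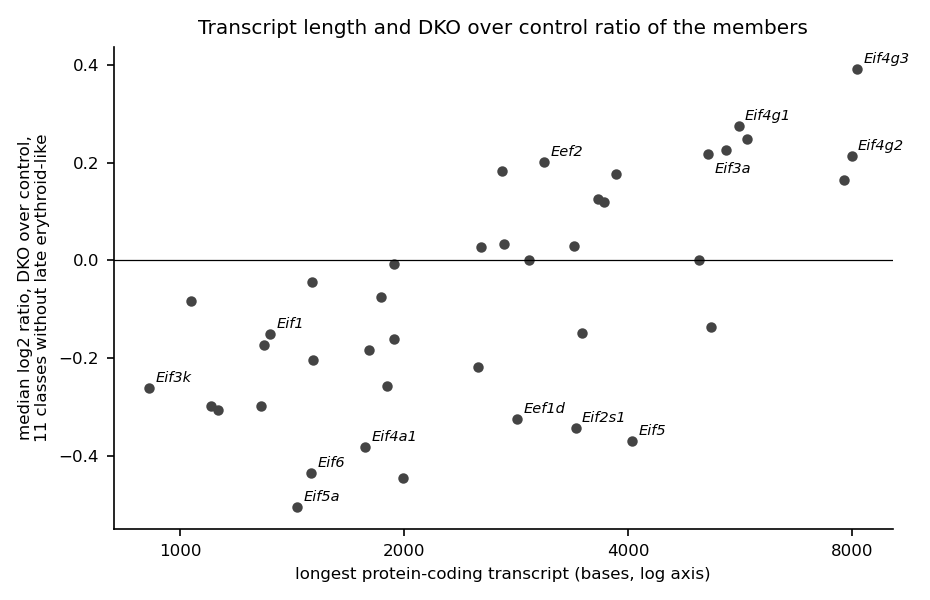
Longest protein-coding transcript in bases (x axis, log axis) against the median log2 ratio of DKO over control over the 11 classes other than late erythroid-like (y axis) for the 41 members of at least 20 CPM in each of these classes, 1 point per member. Long members such as Eif4g1, Eif4g2 and Eif4g3 lie above 0 and short ones such as Eif3k, Eif6 and Eif5a below, while Eif5, Eif2s1 and Eef1d lie below 0 in spite of 4050, 3405 and 2842 bases.

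Eif5 had a ratio below 0 in all 11 classes other than late erythroid-like, with 9 intervals below 0. These include B cell-like cells, where hemoglobin took 7.07% of UMIs in control and 6.72% in DKO, and 52.6% in a cluster of that class. They also include 3 classes that held hemoglobin in unequal amounts. Eif5 was at 268 and 73.4 CPM in megakaryocyte-like cells (ratio -1.84, interval -2.35 to -1.42), where the hemoglobin share of UMIs was 16.1% and 8.63%. In stromal or endothelial-like cells it was at 266 and 124 CPM (-1.07, interval -1.59 to -0.63), with 18.9% and 5.67% hemoglobin, and in macrophage-like cells at 396 and 243 CPM (-0.70, interval -0.92 to -0.48), with 23.7% and 19.2%. The part of erythroid RNA in the ratios of Eif5 was not tested in any of the 11 classes.

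By likeness of level over classes and stages, Eef1a1 stood closest to Eif3e (Pearson's r 0.98), Eef1b2 (0.97), Eef2 (0.95) and Eif3f (0.93) and farthest from Eif5 (-0.50), with Eif1 at 0.21. These are correlations over 30 points, 15 groups in both libraries, which share libraries and the scaling to hemoglobin-rich totals.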

How the data were processed

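Single-cell RNA libraries were made from femoral marrow by the 3' Chromium method, 1 per genotype. The deposited values are raw UMI counts per gene and barcode that the authors made with Cell Ranger 7.1.0 on the mm10 build, per the submitters' notes and file headers, with all barcodes for control and called cells for DKO. Control cells were therefore called here, by a threshold of 4869 UMIs and, from 500 UMIs up, a Monte Carlo multinomial test against barcodes of at most 100 UMIs (10000 iterations, false discovery rate 0.01). Of the 697 barcodes not called, 331 held at least 75% hemoglobin. Cells over 20% mitochondrial UMIs (174 control, 215 DKO) and Scrublet doublets (score over 0.228 in both libraries, 315 and 198) were left out.

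Cells were clustered with scanpy 1.11.5 (2000 variable genes, 30 principal components, 15 neighbors, Leiden resolution 1.0) without the members, Ddx41 and Cgas, and clusters were named from marker lists. Counts were summed per class or stage and library, and ratios took 1 added count and the exact conditional binomial interval. Levels have Poisson and shares Clopper-Pearson intervals. Median UMIs per cell were 4874 in control and 6904 in DKO, and total UMIs 119584085 and 114830668. The intervals were tested on simulated counts. All members could be named, by role. Members, lists and stages were chosen with earlier results of these data known. Gene lengths and positions came from GENCODE M21 and start sequences from RefSeq, whose protein sequences were not used here. Alternatives covered the scaling, the filter on low levels, the added count, doublets, the mitochondrial limit, deep barcodes, thinning and equal weight per cell.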

Additional observations from a re-analysis of the deposited data

How the results depend on the processing

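No paired analysis was possible because each genotype had 1 library, which also left no replicate to leave out. In late erythroid-like cells the median ratio of the members (-0.96) was -0.61 without hemoglobin, -0.64 without hemoglobin and ribosomal proteins, -1.24 without the filter on levels, -1.22 with doublets kept, -0.48 at 75 to 90% hemoglobin and -0.29 at 90% or more. The main median lies in a wide gap between the ratios of Eef1a1 and Eef2, so a change in which members are tested can move it. The count of lower members (6) was 49 without the filter, where 85.5% of all genes with a UMI had a ratio below 0. It was 2 from 50 CPM, and 3 at 90% hemoglobin or more, where 33.2% of all genes were lower. The share of all genes past 1.5-fold is not given here without the filter or from 50 CPM. Those counts thus cannot set the members apart from all genes. The 6 lower members kept their sign under all 13 alternatives, and 5 of them stayed past 1.5-fold under the scalings without hemoglobin and in both hemoglobin stages. Over the other classes the pairs higher (10, against 12.1% of all pairs of gene and class) were 28 without the filter and 5 from 50 CPM. The share of all pairs under these alternatives is not given here.

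The change of the summed level from the first stage to the last (log2 -4.03 for control, -4.55 for DKO) was -0.51 and -0.85 without hemoglobin, -0.86 and -1.20 without ribosomal proteins as well, -3.91 and -4.59 with deep barcodes, -3.73 and -4.11 thinned to 1000 UMIs and -3.79 and -4.26 with cells weighted alike. The summed level in late erythroid-like cells (2280 and 1294 CPM) was 15299.7 and 11055 without hemoglobin, 16167 and 11431 without ribosomal proteins as well, 2298 and 1318 with doublets kept, 2258 and 1260.3 thinned, 2316 and 1313 with cells weighted alike, and 2313 in control with deep barcodes. The filter and the added count give no other value for summed levels. Eif5, which lay within 1.5-fold, turned from -0.35 to 0.13 at 75 to 90% hemoglobin and 0.27 at 90% or more. The cause of these shifts was not tested. With 1 library a genotype, differences between mice and between genotypes cannot be told apart.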
